A study of Rattus norvegicus with 43 samples.

Results

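The genes of 9 enzymes and partners that write, copy or remove methyl groups on DNA and histones were followed in A7r5 cells, an established smooth muscle line from rat aorta. They were Dnmt1, Dnmt3a, Dnmt3b, Uhrf1, Tet2, Ezh2, Eed, Suz12 and Hells, out of 14217 gene symbols on the array. Probe sets, each a group of short probes for 1 transcript, were taken where the platform annotation gave only 1 of these symbols, which found 12 probe sets. Where a gene had several, the one that was brightest on average across the 43 arrays stands for it. For 8 of the 9 genes it passed the limit on low values, a log2 expression value above 4 in at least 4 arrays, as it did for 9095 genes in all. Dnmt3b was above that limit in 0 of 43 arrays and was not tested. The study asked how the folate supply acts on vascular smooth muscle cells, and total RNA was measured on Affymetrix rat arrays that read mainly the 3' end of transcripts. All cells were in custom made DMEM. Deficient medium held 2.5 ng/ml of folic acid, sufficient medium 10 ng/ml and excess medium 100 ng/ml, and each was used for 7, 14 or 21 days. There were 4 arrays of deficient, 5 of sufficient and 4 of excess medium at day 7, and 5 of each medium at days 14 and 21. All arrays come from 1 cell line. Whether replicates were cultured separately is not in the labels, and the p-values then reflect the scatter of these arrays alone, which could be technical.

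DNA methylation in mammals sits mostly on cytosines that precede guanines. DNMT3A and DNMT3B place it on unmethylated DNA, UHRF1 finds the half-methylated sites that replication leaves behind, and DNMT1 restores the missing mark there. HELLS is a chromatin remodeller that opens compact DNA for methylation, and TET2 oxidises methylcytosine on the way to its removal. EZH2, EED and SUZ12 form the core of Polycomb repressive complex 2, which methylates lysine 27 of histone H3. The methyltransferases among them take their methyl groups from S-adenosylmethionine, which the folate and methionine cycles replenish.

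The arrays carried the markers of their labelled cell type. Of 12 smooth muscle markers, 12 passed the limit on low values, against 1 of 8 endothelial, 1 of 8 macrophage, 1 of 7 epithelial, 5 of 9 fibroblast and 5 of 10 skeletal muscle markers. Col1a1, Col1a2, Thy1 and Pdpn of the fibroblast list averaged 13.79, 14.31, 10.72 and 8.61 over all arrays. Pdgfra, Dcn, Lum, Fap and Dpt of that list averaged 2.23 to 2.72. Of the skeletal muscle list Myh1, Myl1 and Acta1 averaged 11.87, 8.85 and 8.17, and the rest 2.76 to 3.92. The smooth muscle markers averaged 5.10 to 14.18. Replicate arrays correlated at 0.9912 to 0.9980, and 0 pairs held identical values. The titles carry a serial number, which lies above 45 in 11 arrays, is not unique (3 arrays carry 22 and 2 carry 50) and has no stated meaning, and the highest 4 serials, 53 to 56, belong to excess arrays, 2 each of day 14 and day 21. The beta-actin control, whose 3' and 5' probe sets drift apart when the 5' end is under-represented, differed by a mean of 2.21 and 2.22 on the log2 scale in excess arrays of days 14 and 21, against 1.63 to 1.93 in the other 7 groups.

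The promoters of the 4 genes with the deepest shared fall over time are shown, so that the letters they share can be seen. The windows hold 250 bases before the start site and 50 after it, from RefSeq on the GRCr8 build, and 8 of the 9 genes had an entry. Uhrf1 lies at chr9:1222936-1223235 on the plus strand (the window of 3 that held the most CG), Ezh2 at chr4:77687134-77687433 on the minus strand, Dnmt1 at chr8:27762792-27763091 on the minus strand and Hells at chr1:246113879-246114178 on the plus strand, each written 5' to 3' along its gene. Capitals mark matches to 2 motifs. The first is the 8-letter E2F motif in the spellings TTTCCCGC, TTTGGCGC, TTTCGCGC and TTTGCCGC, and the second is the CCAAT box, both searched on both strands, so that GCGGGAAA, GCGCGAAA and ATTGG are the same motifs read from the other strand.
Uhrf1: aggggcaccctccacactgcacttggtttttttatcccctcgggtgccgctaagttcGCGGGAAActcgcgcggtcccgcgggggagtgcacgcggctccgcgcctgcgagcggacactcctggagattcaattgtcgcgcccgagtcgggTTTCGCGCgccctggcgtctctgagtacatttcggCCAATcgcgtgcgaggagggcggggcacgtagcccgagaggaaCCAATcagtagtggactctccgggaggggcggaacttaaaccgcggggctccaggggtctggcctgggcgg
Ezh2: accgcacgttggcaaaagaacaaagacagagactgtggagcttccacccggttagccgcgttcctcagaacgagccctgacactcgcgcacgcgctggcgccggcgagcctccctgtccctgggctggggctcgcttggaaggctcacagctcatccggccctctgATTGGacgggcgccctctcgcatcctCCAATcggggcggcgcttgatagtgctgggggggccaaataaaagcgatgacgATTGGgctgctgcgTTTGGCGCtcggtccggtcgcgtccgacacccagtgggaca
Dnmt1: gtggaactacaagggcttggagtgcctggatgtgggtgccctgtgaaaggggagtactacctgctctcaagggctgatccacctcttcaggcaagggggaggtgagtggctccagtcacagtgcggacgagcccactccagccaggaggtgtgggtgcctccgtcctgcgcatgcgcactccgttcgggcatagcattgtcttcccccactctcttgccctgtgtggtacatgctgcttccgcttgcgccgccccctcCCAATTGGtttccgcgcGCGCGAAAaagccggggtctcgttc
Hells: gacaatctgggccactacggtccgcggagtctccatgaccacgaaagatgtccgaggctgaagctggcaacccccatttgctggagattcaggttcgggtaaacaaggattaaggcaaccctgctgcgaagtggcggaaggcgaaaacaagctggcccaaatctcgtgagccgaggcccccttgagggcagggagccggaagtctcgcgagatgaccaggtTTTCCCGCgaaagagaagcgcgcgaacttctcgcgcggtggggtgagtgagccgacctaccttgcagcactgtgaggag
An E2F spelling stood in the windows of 5 members, namely these 4 and Suz12, and of the 3 Uhrf1 windows only the one shown held it. Counted per window and not per gene, 2.14% of all 33469 promoter windows held one. All 4 spellings contain CG, and the matching windows held 17 to 38 CG dinucleotides against a median of 7.0 over all windows. The 2.14% is therefore not a like background, and enrichment was not tested. A CCAAT box stood in the windows of Dnmt1, Uhrf1, Ezh2, Eed and Suz12 and in 37.5% of all windows, again counted per window. In Dnmt1 the letters CCAATTGG hold the box on both strands at once. The Uhrf1 window held 35 CG dinucleotides, Ezh2 30, Hells 23 and Dnmt1 17, against a median of 7.0 over all windows. Tet2 and Dnmt3a held neither motif, with 39 and 21 CG dinucleotides. Such matches describe the letters and show neither binding nor a cause.

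Most of these genes were higher in excess medium from day 14 on. At day 14, 7 of the 8 tested members were higher in excess than in sufficient medium and 0 were lower, in a comparison in which 22.3% of all genes tested were called higher. At day 21, 6 of 8 were higher and 0 lower, against 24.4% called higher over all genes. The median log2 change of the members was 0.62 at day 14 and 0.60 at day 21, against medians of 0.01 and 0.03 over all genes. Excess and sufficient arrays did not overlap for 5 of 8 members at day 14 and 5 of 8 at day 21. Over all genes, 20.9% and 27.4% were without overlap. At day 7, 0 of 8 passed the threshold, and 2.37% of all genes did in either direction. A call here is an adjusted p under 0.05 in limma, by the Benjamini-Hochberg method over all 9095 genes. In bulk RNA such as this, fewer cells of a type and less RNA per cell cannot be told apart.

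**Figure D1:**
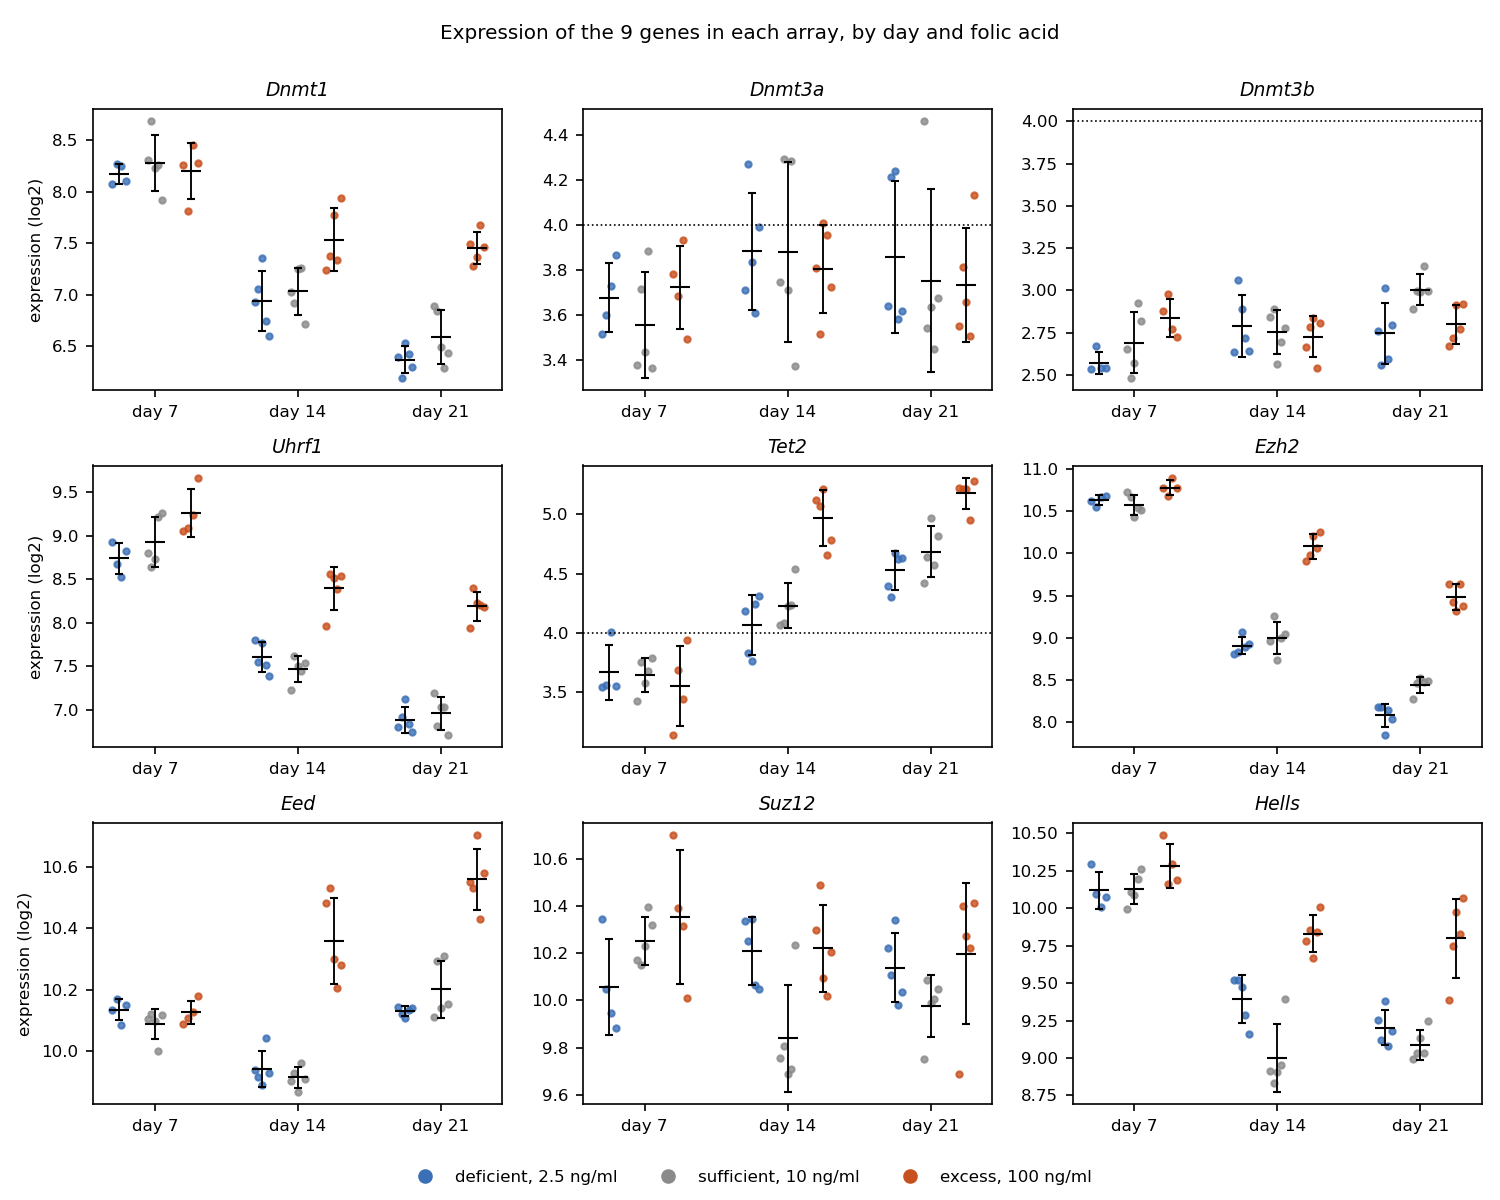
Expression (log2) of the 9 genes in each of the 43 arrays, by day and, within a day, from deficient to excess medium. Points are arrays, bars the mean and SD, and the dotted line the limit of 4. Uhrf1, Ezh2 and Hells in excess medium stand above the other media at days 14 and 21, Tet2 runs upward with the days, and Dnmt3b stays below 4 throughout.

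Among the genes that copy DNA methylation, Uhrf1 showed the largest change at day 21. Its probe set read 7.96, 8.56, 8.52, 8.39 and 8.54 in excess medium at day 14, against 7.23, 7.62, 7.51, 7.44 and 7.54 in sufficient medium. It read 7.94, 8.40, 8.22, 8.20 and 8.18 in excess medium at day 21, against 7.19, 6.81, 7.04, 7.04 and 6.72 in sufficient medium. No array of one medium reached into the range of the other at either day, and the lowest excess array of day 14 was replicate 1, at 7.96. Uhrf1 was 1.90-fold higher at day 14 (log2 change 0.93 ± 0.13, SE, adjusted p = 2.8e-07) and 2.35-fold higher at day 21 (1.23 ± 0.13, adjusted p = 2.8e-10). At day 7 it averaged 9.26 ± 0.28 in excess and 8.93 ± 0.29 in sufficient medium (SD, n = 4 and 5), with overlapping arrays and an adjusted p of 0.18.

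Dnmt1, the maintenance methyltransferase itself, moved less at day 14 than at day 21. Its excess arrays read 7.24, 7.37, 7.77, 7.34 and 7.94 at day 14, against 7.03, 6.92, 7.25, 7.25 and 6.71 in sufficient medium. The groups met there, because the lowest excess array lay just under 2 of the sufficient arrays. At day 21 the excess arrays read 7.49, 7.27, 7.36, 7.68 and 7.46, against 6.89, 6.84, 6.49, 6.29 and 6.43 in sufficient medium, with no overlap. The changes were 0.50 ± 0.14 at day 14 (adjusted p = 0.0055) and 0.87 ± 0.14 at day 21 (adjusted p = 6.1e-06), which are 1.42-fold and 1.82-fold. At day 7 Dnmt1 averaged 8.20 ± 0.27 in excess and 8.28 ± 0.27 in sufficient medium.

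Hells, the remodeller, read 9.78, 9.86, 9.66, 9.84 and 10.01 in excess medium at day 14, against 8.91, 8.83, 8.91, 8.95 and 9.39 in sufficient medium. At day 21 it read 9.39, 9.75, 9.98, 9.83 and 10.07 in excess medium, against 9.00, 9.03, 9.13, 9.03 and 9.24 in sufficient medium. The media were apart at both days, although sufficient replicate 5 of day 14 and excess replicate 1 of day 21, both at 9.39, each lay toward the other medium. The changes were 0.83 ± 0.10 at day 14 (adjusted p = 2.6e-08) and 0.71 ± 0.10 at day 21 (adjusted p = 3.3e-07).

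Ezh2, the catalytic subunit of the Polycomb complex, was the member with the largest change at day 14. It read 9.92, 9.98, 10.21, 10.06 and 10.26 in excess medium, against 8.96, 9.26, 8.73, 9.00 and 9.04 in sufficient medium. At day 21 it read 9.64, 9.42, 9.32, 9.64 and 9.37 in excess medium, against 8.27, 8.46, 8.52, 8.47 and 8.48 in sufficient medium. Every excess array stood above every sufficient array at both days. Ezh2 was 2.12-fold higher at day 14 (1.09 ± 0.08, adjusted p = 2e-13) and 2.06-fold higher at day 21 (1.04 ± 0.08, adjusted p = 3.3e-13). A second Ezh2 probe set rose by less, by 0.68 ± 0.14 at day 14 (adjusted p = 0.00019) and 0.70 ± 0.14 at day 21 (adjusted p = 9.4e-05). Another Ezh2 probe set was above the limit of 4 in 0 arrays.

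The other core subunits of that complex changed less. Eed, which binds methylated lysine 27 and helps the complex spread, read 10.48, 10.53, 10.30, 10.21 and 10.28 in excess medium at day 14, against 9.90, 9.93, 9.87, 9.96 and 9.91 in sufficient medium. It read 10.55, 10.53, 10.70, 10.43 and 10.58 in excess medium at day 21, against 10.11, 10.29, 10.14, 10.31 and 10.15 in sufficient medium. Its groups did not overlap at either day, and the changes were 0.44 ± 0.05 (adjusted p = 1.7e-08) and 0.36 ± 0.05 (adjusted p = 7.9e-07). Suz12, the subunit that holds the complex together, read 10.30, 10.49, 10.09, 10.02 and 10.21 in excess medium at day 14, against 9.76, 9.81, 9.69, 9.71 and 10.23 in sufficient medium. Sufficient replicate 5 stood within the excess range, and the change of 0.38 ± 0.12 had an adjusted p of 0.012. That call was lost in 5 of 23 alternatives. For Suz12 the adjusted p was 0.43 in serials up to 45, 0.084 with the beta-actin difference as a covariate, 0.15 without serials 53 to 56, 0.23 without the arrays over a beta-actin difference of 2.1 and 0.05 without excess replicate 3. At day 21 Suz12 averaged 10.20 ± 0.30 in excess and 9.98 ± 0.13 in sufficient medium (SD, n = 5 each), and the difference of 0.22 had an adjusted p of 0.14. It passed the threshold without excess replicate 1, at 9.69, and with array weights, where 0.013 was the smallest adjusted p.

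Tet2, which opens the path to demethylation, also rose. It read 5.12, 5.07, 5.22, 4.66 and 4.78 in excess medium at day 14, against 4.06, 4.08, 4.23, 4.23 and 4.54 in sufficient medium. At day 21 it read 5.23, 5.21, 5.21, 4.95 and 5.28 in excess medium, against 4.42, 4.64, 4.97, 4.57 and 4.82 in sufficient medium. The groups were apart at day 14 and met at day 21, where sufficient replicate 3 at 4.97 lay just above excess replicate 4 at 4.95. The changes were 0.74 ± 0.13 at day 14 (adjusted p = 2.6e-05) and 0.49 ± 0.13 at day 21 (adjusted p = 0.0024). Tet2 lay close to the limit on low values, with 29 of 43 arrays above 4. Its day 7 arrays reached only 3.79 in sufficient, 3.94 in excess and 4.01 in deficient medium, so it passed the limit through the later days.

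The methyltransferases that place new marks gave little signal. The main Dnmt3a probe set lay above 4 in 8 of 43 arrays, and its group means ran from 3.55 to 3.88. Its change in excess medium was -0.08 ± 0.17 at day 14 (95% interval -0.43 to 0.27, adjusted p = 0.75) and -0.02 ± 0.17 at day 21 (interval -0.37 to 0.33, adjusted p = 0.93). Arrays of every medium overlapped at every day, and the highest single value was 4.46, in sufficient replicate 1 of day 21. A second Dnmt3a probe set was above 4 in 0 arrays. Dnmt3b read between 2.48 and 3.14 in all 43 arrays, which is below the limit, so no level or change was taken from it.

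**Figure D2:**
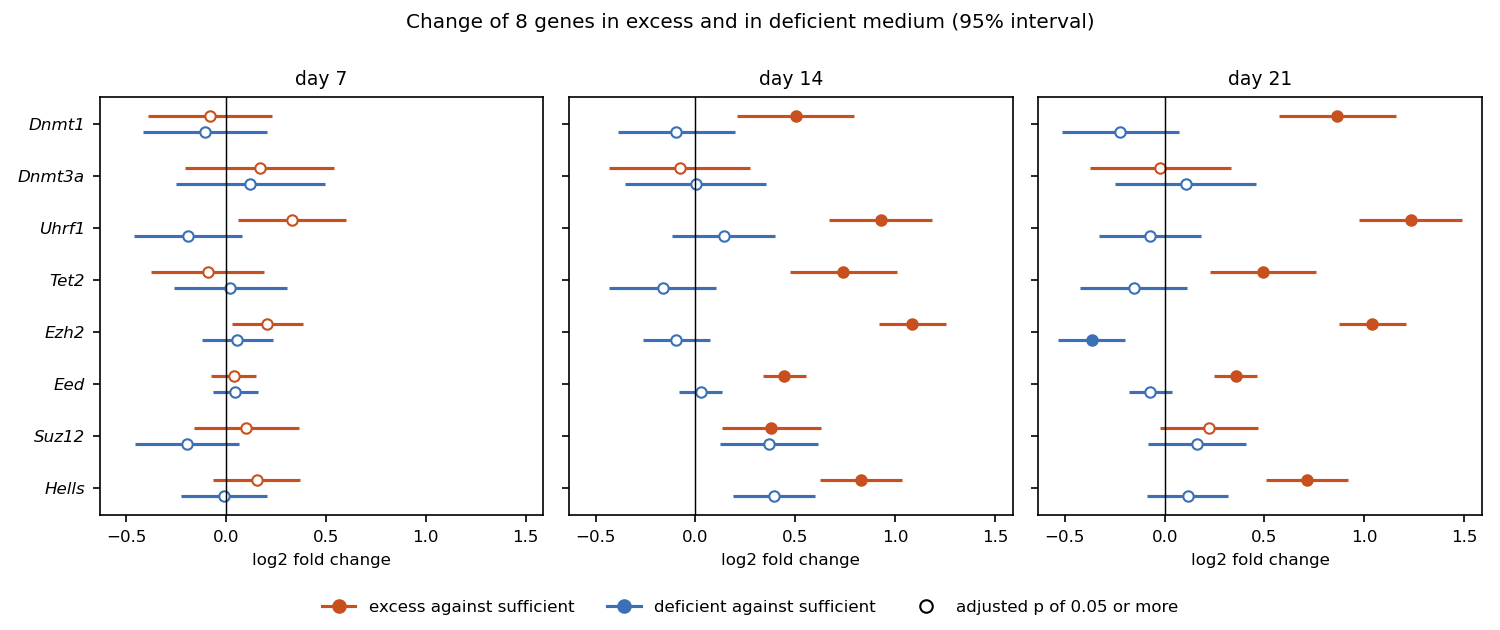
Log2 fold change with its 95% interval for the 8 tested genes, at each day, in excess against sufficient medium (upper symbol) and in deficient against sufficient medium (lower symbol). Filled symbols passed an adjusted p of 0.05. Filled symbols are 7 of 8 for excess at day 14 and 6 of 8 at day 21, and 1 for deficient medium, Ezh2 at day 21.

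The excess effect was larger at day 21 than at day 7 for 6 of 8 members and smaller for 0, in a test in which 17.0% of all genes were called higher. The difference of the effects, day 21 minus day 7, was 0.95 ± 0.21 for Dnmt1 (adjusted p = 0.00088), 0.90 ± 0.19 for Uhrf1 (adjusted p = 0.00033) and 0.83 ± 0.12 for Ezh2 (adjusted p = 1.7e-06). It was 0.59 ± 0.19 for Tet2 (adjusted p = 0.022), 0.56 ± 0.15 for Hells (adjusted p = 0.0044) and 0.32 ± 0.08 for Eed (adjusted p = 0.0021). The second Ezh2 probe set did not share this result, with 0.26 ± 0.20 and an adjusted p of 0.37. It already stood higher in excess medium at day 7, at 9.90 ± 0.14 against 9.46 ± 0.26 in sufficient medium, without overlap and with an adjusted p of 0.11. Without the 8 arrays whose beta-actin difference exceeded 2.1, the calls of Dnmt1 (adjusted p = 0.053), Tet2 (adjusted p = 0.059) and Hells (adjusted p = 0.15) were lost, which left 3 of 8. The Tet2 call was also lost in serials up to 45 (adjusted p = 0.052), with the beta-actin covariate (adjusted p = 0.066), without serials 53 to 56 (adjusted p = 0.072) and without excess replicate 1 of day 7 (adjusted p = 0.086). The day 7 arrays of Tet2 in both media lay under the limit of 4 on low values. The Hells call was also lost in serials up to 45 (adjusted p = 0.13) and without serials 53 to 56 (adjusted p = 0.052).

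Genes of dividing cells moved in the same comparisons. Of 28 DNA replication genes tested, 25 were higher in excess medium at day 14 and 27 at day 21, with medians of 0.63 and 0.80. Of 23 mitosis genes, 23 were higher at both days, with medians of 1.46 and 1.13. Over the arrays, the mean level of the mitosis genes ran from 9.30 to 9.50 in excess and from 7.84 to 7.96 in sufficient medium at day 14. At day 21 it ran from 8.57 to 8.70 in excess and from 7.30 to 7.45 in sufficient medium. Mcm7, a subunit of the replicative helicase, rose by 0.93 ± 0.08 (adjusted p = 4.6e-12) and 1.58 ± 0.08 (adjusted p = 6.8e-19). At day 14 the mean of the 12 smooth muscle markers ran from 10.36 to 10.53 in excess and from 10.59 to 10.89 in sufficient medium. At day 21 it ran from 10.32 to 10.44 in excess and from 10.72 to 11.02 in sufficient medium. Of these markers 7 of 12 fell at each day, among them Tagln by 0.37 ± 0.05 at day 14. Over all genes, 18.8% and 19.3% were called lower at these days. The mean level of the 10 skeletal muscle markers ran from 4.88 to 5.06 in excess and from 5.23 to 5.32 in sufficient medium at day 14, and from 4.76 to 4.89 in excess and from 5.37 to 5.52 in sufficient medium at day 21. The mean level of the 9 fibroblast markers ran from 6.71 to 6.80 in excess and from 6.58 to 6.86 in sufficient medium at day 14, and from 6.86 to 7.02 in excess and from 6.67 to 6.83 in sufficient medium at day 21. The smooth and skeletal muscle means were thus lower in excess medium without overlap at both days. The fibroblast mean was higher without overlap at day 21. The skeletal and fibroblast means include low genes, as 5 of 10 and 5 of 9 passed the limit on low values. What part division, muscle or fibroblast genes have in the members' values was not tested.

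The beta-actin control and the serial numbers moved with excess medium as well. In excess medium at day 14, replicates 5 and 6 had beta-actin differences of 1.40 and 1.67, inside or below the range of the sufficient arrays (1.43 to 1.82). Ezh2 in those arrays was 10.06 and 10.26, against 9.92, 9.98 and 10.21 in the other excess arrays. Tet2 was 4.66 and 4.78 in those arrays, against 5.12, 5.07 and 5.22 in the others, and Eed 10.21 and 10.28, against 10.48, 10.53 and 10.30. Tet2 and Eed were thus lower where the beta-actin difference was low, and Ezh2 was not. Without the arrays over 2.1, the day 14 change of Tet2 was 0.49 (adjusted p = 0.04), that of Eed 0.33 (adjusted p = 9.6e-05), and that of Suz12 0.27 (adjusted p = 0.23). What part the beta-actin difference has in these values was not tested further. Within serials up to 45, Ezh2 was higher in excess medium by 1.14 at day 14 (2 excess and 4 sufficient arrays) and by 1.15 at day 21 (3 and 3 arrays). Within serials above 45 it was higher by 1.05 (3 excess arrays and 1 sufficient array) and by 0.88 (2 and 2 arrays). Uhrf1 was higher by 0.98 and 1.09 within serials up to 45 and by 0.91 and 1.44 above 45, at days 14 and 21. The other called members kept their direction within both sets of serials at both days.

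**Figure D3:**
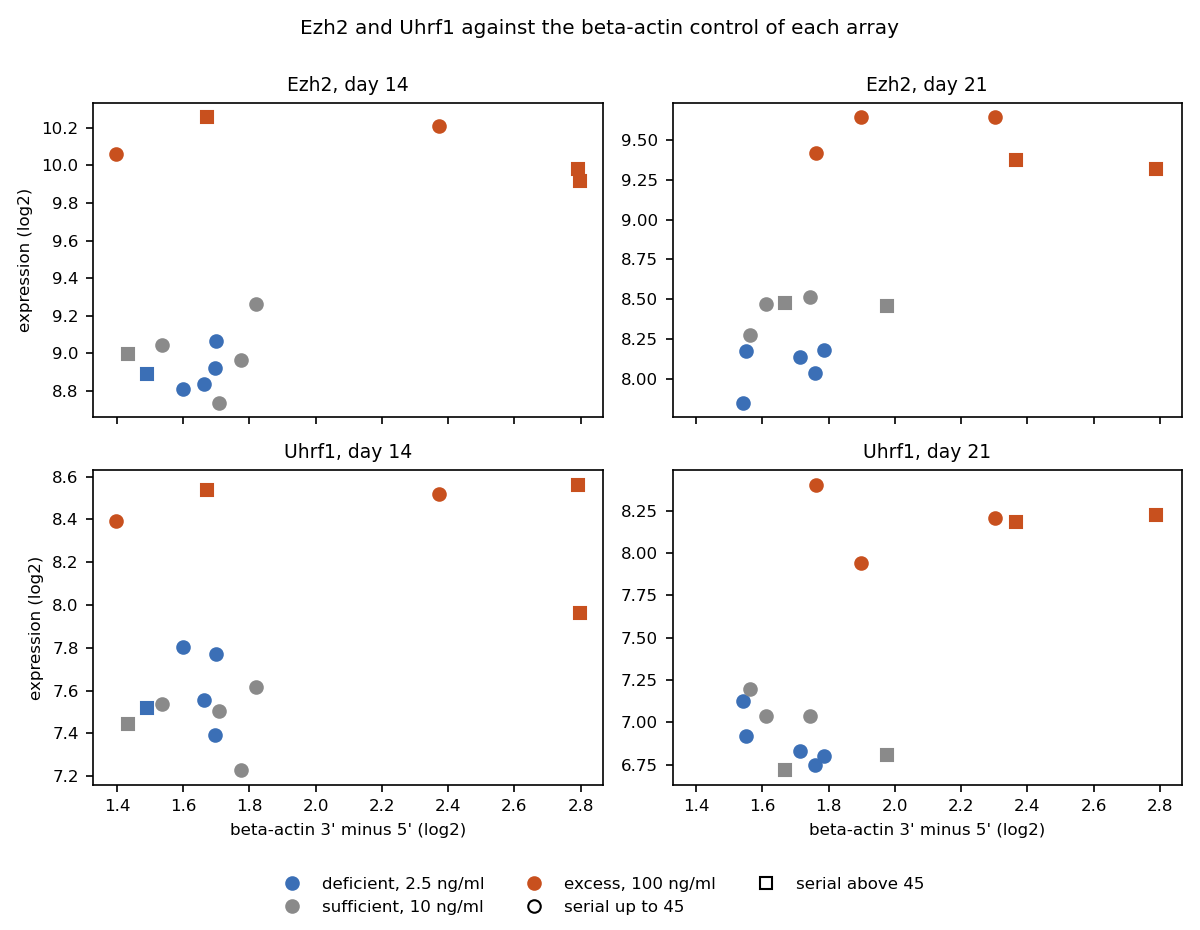
Expression of Ezh2 and Uhrf1 (log2) against the beta-actin 3' minus 5' difference (log2) of each array at days 14 and 21. Colours give the medium, circles serials up to 45 and squares serials above 45. For these 2 genes, the excess arrays at 1.40 and 1.67 at day 14 lie within or above the range of the excess arrays over 2.1, which does not hold for Tet2 and Eed.

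Deficient against sufficient medium called few genes in all, and few of these members. At day 7, 0 of 8 passed the threshold in limma and 0 of all 9095 genes did (0%), although 551 genes had an unadjusted p under 0.05. At day 14, 0 of 8 passed, with 0.0880% of all genes called in either direction. At both days 0 of 8 is thus near the share over all genes. The largest differences at day 14 were those of Hells, which averaged 9.39 ± 0.16 in deficient and 9.00 ± 0.22 in sufficient medium, and Suz12, at 10.21 ± 0.14 and 9.84 ± 0.23 (SD, n = 5 each). Their log2 changes of 0.39 ± 0.10 and 0.37 ± 0.12 had adjusted p-values of 0.11 and 0.29. Both comparisons include sufficient replicate 5, the array at 9.39 for Hells and 10.23 for Suz12. Without it Hells passed the threshold, and with array weights both did, at adjusted p-values as low as 0.0071 for Hells and 0.028 for Suz12.

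At day 21, 1 of 8 members was lower in deficient medium, Ezh2, and 0.374% of all genes were called lower. Ezh2 read 8.18, 8.17, 7.85, 8.14 and 8.04 in deficient medium, against 8.27, 8.46, 8.52, 8.47 and 8.48 in sufficient medium. All deficient arrays lay below all sufficient arrays, the closest pair being 8.18 and 8.27. Over all genes, 4.39% were without overlap in this comparison. The change was -0.37 ± 0.08 (adjusted p = 0.022), or 1.29-fold lower. The second Ezh2 probe set changed by -0.46 ± 0.14 with an adjusted p of 0.14. The call did not hold in 6 of 23 alternatives, with adjusted p-values up to 0.089. These were serials up to 45, a fit on these groups alone, and the fits without deficient replicate 4 or 6 or without sufficient replicate 3 or 4. Of the 23 mitosis genes 2 were lower here, Racgap1 by 0.43 ± 0.08 and Aurka by 0.50 ± 0.12, and 0 of the 28 replication genes passed the threshold. In the test of the deficiency effect at day 21 minus day 7, 0 of 8 members were called. Over all genes 0.0440% were, so 0 of 8 is near that share and does not show that the effect was equal at both days. For Ezh2 the difference was -0.42 ± 0.12 with an adjusted p of 0.18, and of 0.039 with array weights.

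Deficient medium was also set against excess medium, in comparisons that share their excess and deficient arrays with those above. At day 7, 1 of 8 members was lower in deficient medium, in a comparison that called 0.968% of all genes lower. This was Uhrf1, which read 8.92, 8.68, 8.53 and 8.83 in deficient medium, against 9.05, 9.08, 9.24 and 9.66 in excess medium. The groups did not overlap, as held for 14% of all genes, and the change was -0.52 ± 0.14 (adjusted p = 0.025). It was lost in 7 of 21 alternatives, among them the fits without deficient replicate 2 or 5 or without excess replicate 4 or 6, with adjusted p-values up to 0.11. At day 14, 6 of 8 were lower (23.4% of all genes), from -0.42 ± 0.05 for Eed to -1.18 ± 0.08 for Ezh2. At day 21 the same 6 (Dnmt1, Uhrf1, Tet2, Ezh2, Eed and Hells) were lower (28.5% of all genes), with Ezh2 at 8.07 ± 0.14 in deficient and 9.48 ± 0.15 in excess medium, a 2.65-fold difference. Uhrf1 was 2.47-fold lower and Dnmt1 2.12-fold lower at day 21. Suz12 differed by -0.06 ± 0.12 there (adjusted p = 0.7), and Dnmt3a by 0.13 ± 0.17 (adjusted p = 0.57).

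Most of these genes changed with time in culture, and so did most of all genes tested. Between day 7 and day 21, 6 of 8 members were called in sufficient, 5 in deficient and 6 in excess medium. Of all 9095 genes 5696, 5893 and 5456 were called, so the member counts are near the share over all genes. In sufficient medium Ezh2 averaged 10.58 ± 0.12 at day 7, 9.00 ± 0.19 at day 14 and 8.44 ± 0.10 at day 21 (SD, n = 5 each), so that day 21 was 4.40-fold below day 7. Uhrf1 averaged 8.93 ± 0.29, 7.47 ± 0.15 and 6.96 ± 0.19 on those days, and Dnmt1 8.28 ± 0.27, 7.03 ± 0.23 and 6.59 ± 0.26. Hells fell by 1.13 ± 0.10 by day 14 and changed by 0.09 ± 0.10 after it (adjusted p = 0.52). Tet2 ran the other way, at 3.64 ± 0.15, 4.23 ± 0.19 and 4.68 ± 0.21, or 2.05-fold above day 7 at day 21. All its sufficient and excess arrays of day 7 lay under the limit of 4, so its rises and fold start from low values. For Ezh2, Uhrf1, Dnmt1, Hells and Tet2 the arrays of day 21 and day 7 did not overlap in any medium. Groups without overlap were common between these days, at 60.1% of all genes in deficient, 43.7% in sufficient and 44.4% in excess medium.

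**Figure D4:**
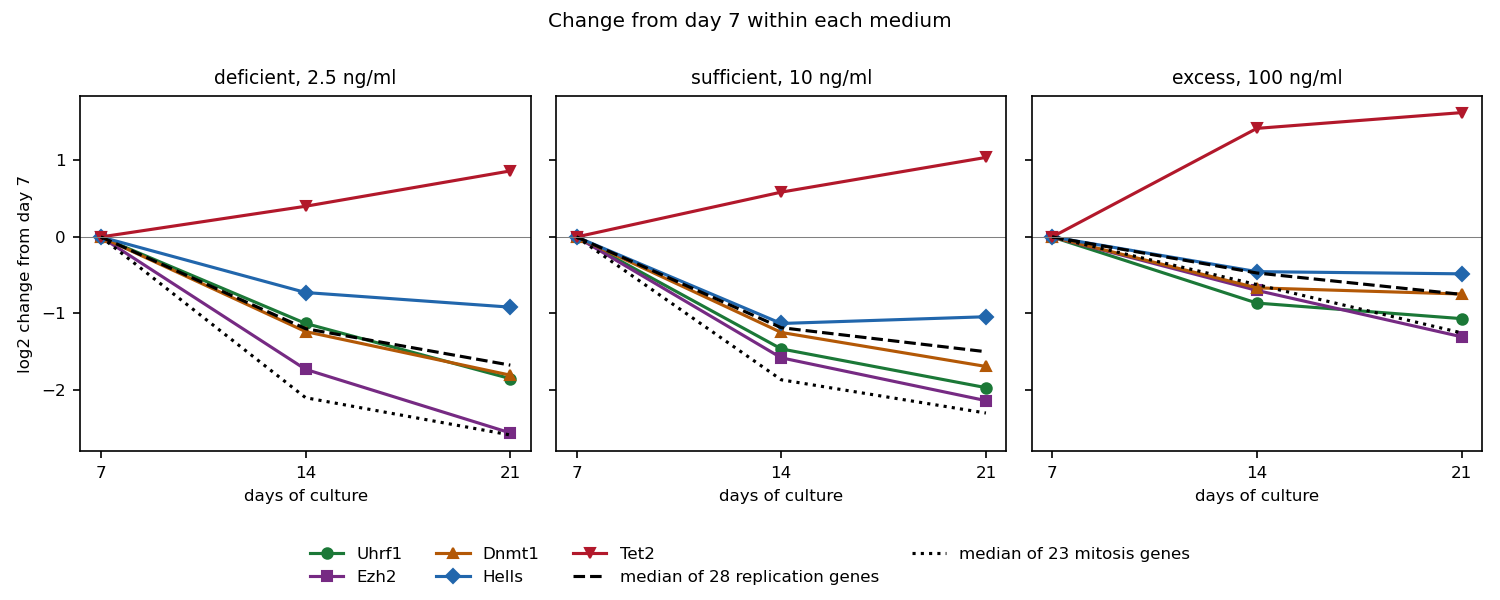
Log2 change from day 7 of the group means of Uhrf1, Ezh2, Dnmt1, Hells and Tet2 in each medium, with the median change of 28 replication genes (dashed) and 23 mitosis genes (dotted). The lines fall less in excess than in sufficient medium, where Ezh2 reached -2.14 and the mitosis median -2.30 at day 21, while Tet2 rises in all 3 media.

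Counts of calls by time were as follows in sufficient medium. Day 14 against day 7 gave 1 member higher, Tet2, and 6 lower, while 19.9% of all genes were called higher and 24.7% lower. Day 21 against day 14 gave 2 higher, Eed and Tet2, and 3 lower, Dnmt1, Ezh2 and Uhrf1 (17.9% higher and 16.7% lower over all genes). Day 21 against day 7 gave 1 higher and 5 lower (29.6% and 33.1%). The lower call of Suz12 in that last comparison, -0.28 ± 0.12 with an adjusted p of 0.046, was lost in 12 of 23 alternatives, among them those without sufficient replicate 4, 5 or 6 of day 7 or without replicate 1, 3, 4 or 6 of day 21.

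In deficient medium Dnmt1, Ezh2, Hells and Uhrf1 fell between day 7 and day 21, while Suz12 changed by 0.08 ± 0.13 (adjusted p = 0.6). Day 14 against day 7 gave 1 higher and 5 lower (19.4% higher and 26.2% lower over all genes), with Ezh2 at -1.73 ± 0.09. Tet2's rise of 0.40 ± 0.14 there (adjusted p = 0.018) was lost in 5 of 22 alternatives, those without deficient replicate 1, 2 or 6 of day 7 or replicate 6 of day 14 among them. Day 21 against day 14 gave 2 higher and 3 lower (20.9% and 17.9%). Day 21 against day 7 gave 1 higher and 4 lower (30.7% and 34.1%), with Ezh2 at -2.56 ± 0.09, Uhrf1 at -1.85 ± 0.13 and Dnmt1 at -1.81 ± 0.15.

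In excess medium Dnmt1, Ezh2, Hells and Uhrf1 fell by less over the 3 times measured. Day 14 against day 7 gave 2 higher, Eed and Tet2, and 4 lower, Dnmt1, Ezh2, Hells and Uhrf1 (27.3% higher and 20.9% lower over all genes). Between day 21 and day 14, 1 was higher, Eed at 0.20 ± 0.05, and 1 lower, Ezh2 at -0.61 ± 0.08 (11.9% and 11.2%). Over the whole course, day 7 to day 21, 2 were higher and 4 lower (34.6% and 25.4%). By then Ezh2 had fallen by 1.30 ± 0.09, Uhrf1 by 1.07 ± 0.13 and Dnmt1 by 0.75 ± 0.15, while Tet2 had risen by 1.62 ± 0.14 and Eed by 0.43 ± 0.06. The tests of the excess effect at day 21 minus day 7 given above are also the tests of how the change from day 7 to day 21 differed between excess and sufficient medium.

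The order of the 9 groups differed by gene. For Ezh2 the 3 day 7 groups were highest and overlapped each other, followed by excess day 14 (10.08), excess day 21 (9.48), sufficient day 14 (9.00), deficient day 14 (8.90), sufficient day 21 (8.44) and deficient day 21 (8.07). In that order only the 3 groups of day 7 and the sufficient and deficient groups of day 14 overlapped their neighbour. Uhrf1 showed a similar sequence, with the gap below excess day 21 (8.19) clear of overlap and the sufficient and deficient groups of day 21 overlapping at the bottom (6.96 and 6.89). For Dnmt1 the excess groups of days 14 and 21 (7.53 and 7.45) overlapped each other. Excess day 14 ran up to 7.94, which was clear of deficient day 7, the next group above it. It overlapped excess and sufficient day 7, which reached down to 7.81 and 7.92. Tet2 and Eed each had excess day 21 and then excess day 14 at the top, and every pair of neighbours in the order of Tet2 overlapped. The group means of Suz12 spanned 0.51 log2 units, those of Ezh2 2.71, and all neighbours of Suz12 overlapped.

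Genes with the most similar course were found by centring each gene on its own mean over the 9 groups and taking the root mean square difference. For Uhrf1 these were Ccna2 (0.13), which drives S phase and mitosis, Mki67 (0.14), a marker of dividing cells, and Bub1 (0.15), a mitotic checkpoint kinase, against a median of 0.82 over all genes. For Ezh2 they were Ska1 (0.12), of the kinetochore, H1f10 (0.13), a linker histone, and Fam83d (0.13), of the spindle, against 0.96. For Dnmt1 they were Srrt (0.047), an RNA processing factor, Chek1 (0.083), a replication checkpoint kinase, and Mcm6 (0.089), of the replicative helicase, against 0.69. For Hells they were Rbl1 (0.10), a pocket protein, Gemin6 (0.10) and Rad51b (0.11), against 0.49. For Tet2 they were Reck (0.094), an inhibitor of matrix proteases, Apbb2 (0.10) and Tmem164 (0.10), against 0.58. Eed was closest to Bms1 (0.041) and Suz12 to Gpatch11 (0.065), with medians of 0.27 and 0.25. Among the members themselves, Dnmt1 and Uhrf1 differed by 0.20 and Ezh2 and Uhrf1 by 0.21, while Tet2 differed from Ezh2 by 1.34. All of these values rest on 9 group means from the same 43 arrays.

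**Figure D5:**
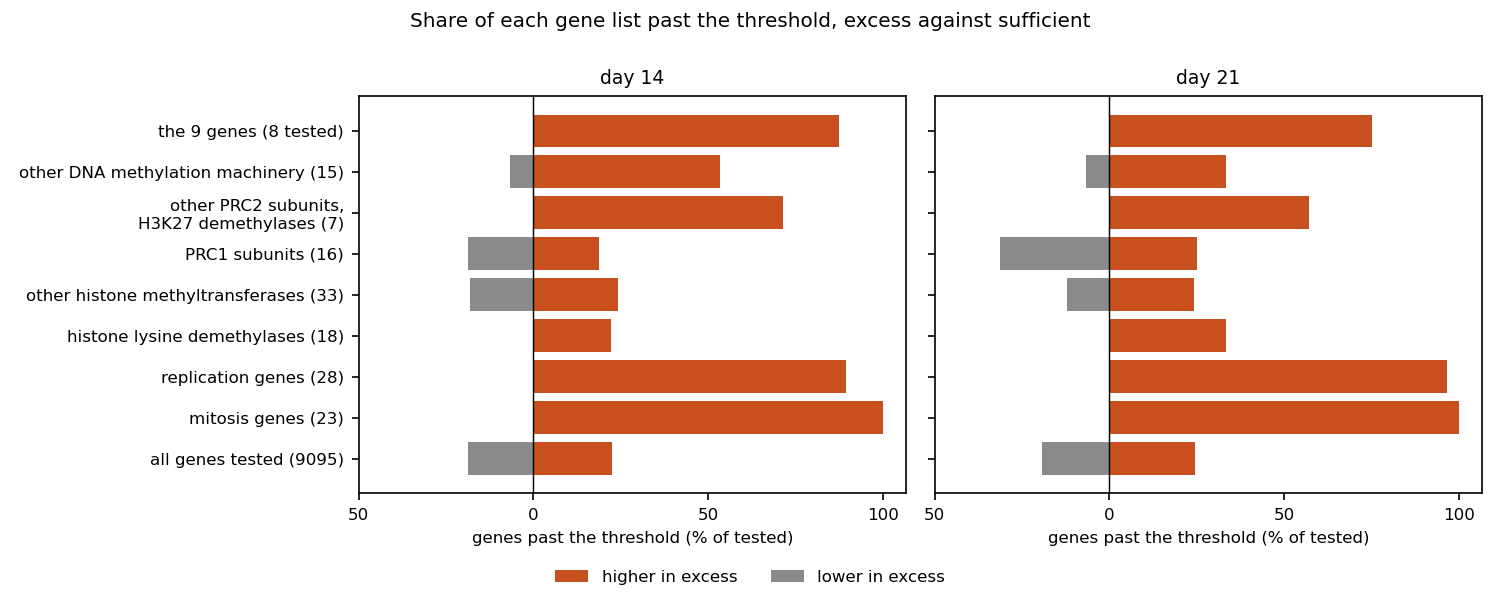
Share of the tested genes of each list that were called higher (right) or lower (left) in excess against sufficient medium, at days 14 and 21, with all genes tested at the bottom. Of the 8 tested members 7 and 6 were called higher, and 23 of 23 mitosis genes at both days, while the PRC1 and histone methyltransferase lists have calls on both sides.

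The other genes of these pathways gave more mixed counts in excess against sufficient medium, in which 22.3% of all genes were called higher and 18.8% lower at day 14, and 24.4% higher and 19.3% lower at day 21. Of 15 further genes of the DNA methylation machinery, 8 were higher and 1 lower at day 14, and 5 were higher and 1 lower at day 21 (medians 0.26 and 0.22). Cdca7, a partner of HELLS, averaged 4.76 in excess and 3.95 in sufficient medium at day 14, a change of 0.82 ± 0.12 (adjusted p = 1.1e-06), and rose by 0.76 ± 0.12 at day 21. Idh2 rose by 0.35 ± 0.06 and 0.29 ± 0.06, while Idh1 fell by 0.35 ± 0.05 and 0.67 ± 0.05. Both encode enzymes that make 2-oxoglutarate, the co-substrate of TET2. Idh1 was lower in excess medium at day 7 too, at 10.70 against 11.04 in sufficient medium (adjusted p = 0.0006).

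Of 7 other genes of Polycomb complex 2 and its opposing demethylases, 5 were higher at day 14 and 4 at day 21, with 0 lower. Aebp2, an accessory subunit, rose by 0.39 ± 0.06 and 0.40 ± 0.06, and Phf19, a reader of lysine 36 methylation, by 0.74 ± 0.17 and 0.84 ± 0.17. Jarid2, which helps recruit the complex, rose by 0.91 ± 0.15 at day 14 (adjusted p = 9.8e-06). Ezh1, the alternative catalytic subunit, ran opposite to Ezh2 over time, at 7.01 at day 21 against 5.52 at day 7 in sufficient medium (1.49 ± 0.14, adjusted p = 5.7e-12). It rose by 1.54 ± 0.15 in excess medium over the same days.

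Of 16 subunits of Polycomb complex 1, 3 were higher and 3 lower at day 14, and 4 higher and 5 lower at day 21 (medians -0.13 and 0.14). Kdm2b rose by 0.36 ± 0.09 and 0.38 ± 0.09, while Pcgf3 fell by 0.29 ± 0.08 and 0.34 ± 0.08. Of 33 other histone methyltransferases and their cofactors, 8 were higher and 6 lower at day 14, and 8 higher and 4 lower at day 21 (medians 0.05 and 0.09), which is near the shares over all genes. Smyd2, a lysine methyltransferase, fell by 0.56 ± 0.07 and 0.62 ± 0.07, and Nsd2, which methylates lysine 36, rose by 0.58 ± 0.08 and 0.53 ± 0.08, with 1 of its 5 probe sets opposite in sign. Of 18 histone demethylases, 4 were higher at day 14 and 6 at day 21, with 0 lower (medians 0.15 and 0.16). Among them Jmjd1c rose by 0.54 ± 0.08 and 0.56 ± 0.08, and Kdm2a by 0.28 ± 0.07 and 0.33 ± 0.07, with 1 of 3 probe sets of Kdm2a opposite in sign at day 14.

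The supply of methyl groups moved in both directions. Of 9 genes tested, 2 were higher and 4 lower at day 14, and 4 were higher and 1 lower at day 21 (medians -0.12 and 0.11). Mat2a, which makes S-adenosylmethionine, averaged 11.62 in excess and 10.93 in sufficient medium at day 14 (0.69 ± 0.10, adjusted p = 1.6e-06). Mtrr, which reactivates methionine synthase, rose by 0.50 ± 0.10 and 0.52 ± 0.10. Shmt2, the mitochondrial serine hydroxymethyltransferase, fell by 0.57 ± 0.13 at day 14 and rose by 0.46 ± 0.13 at day 21. These lists of DNA methylation, Polycomb, histone methylation and methyl supply were also compared in deficient against sufficient medium. At days 14 and 21, 0 of their genes passed the threshold in limma. Of all 9095 genes only 8 and 71 passed it, so 0 in lists of this size is near the share over all genes. An unadjusted p under 0.05 was held by 787 and 1118 of all genes.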

How the data were processed

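Expression was measured on 43 Affymetrix rat genome arrays of A7r5 cells, and every value column was used. The deposited values are log2 expression per probe set, 1 column per array, which the authors normalized with GCRMA, per the submitters' processing notes. Those notes also name limma, and give no version of either. Precision is limited by how few arrays each group has.

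Of 31099 probe sets, 20832 carried 1 gene symbol in the platform annotation, 436 several and 9831 none, and 57 controls were left out. Symbols were checked through Entrez identifiers, of which 20764 matched RefSeq's table and 68 did not, and 0 changed. Each gene took its highest-mean probe set, and genes above a log2 value of 4 in at least 4 arrays were tested. A linear model over the 9 groups was fitted with limma 3.58.1 (lmFit and eBayes) in R 4.3.3, leaving 34 residual degrees of freedom, and each of the 20 comparisons had its p-values adjusted (Benjamini-Hochberg) across all 9095 genes. The second Ezh2 probe set was tested in a fit over all probe sets past the limit. The method was tested on simulated data with independent scatter, which held none of the time, serial or beta-actin differences of these arrays. Alternatives were no or a stricter limit on low values (a log2 value of 5), the mean of a gene's probe sets, a second quantile normalization, array weights, an intensity trend, the array series or beta-actin difference as a covariate, serials up to 45, a replicate block, only the groups compared, and each array left out.

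The members and gene lists were chosen with earlier results of these data known. Beside the members, the text names genes from the up to 3 of each list with the smallest adjusted p in a comparison, and the 3 of closest course to each member. Replicate numbers were not used to pair the samples, and whether arrays of the same number were handled together is not known. Over 133 pairs with the same number the correlation of deviations from the group means ran from -0.536 to 0.590. Its median was -0.014, against 0.004 for pairs with different numbers, and 9 of 43 arrays correlated best with their own number. Such values cannot exclude a shared handling.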

Additional observations from a re-analysis of the deposited data

Results flagged for a closer look

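In 9 of 72 gene and group combinations 1 array stood apart from the rest of its group by Dixon's ratio, and chance alone gives such an array in about 1 in 20 groups. In excess medium these were Uhrf1 at 7.96 in replicate 1 of day 14, Tet2 at 4.95 in replicate 4 of day 21 and Suz12 at 9.69 in replicate 1 of day 21. In deficient medium it was Tet2 at 4.01 in replicate 5 of day 7. In sufficient medium these were Eed at 10.00 in replicate 5 of day 7, Hells at 9.39 and Suz12 at 10.23 in replicate 5 of day 14, and Ezh2 at 8.27 and Dnmt3a at 4.46 in replicate 1 of day 21. Replicate 5 of sufficient day 14 was thus the highest array for both Hells and Suz12.

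The difference between excess and sufficient medium itself differed between day 21 and day 7 for 6 members, by an interaction term in limma. The difference of the log2 effects was 0.95 for Dnmt1, 0.90 for Uhrf1, 0.83 for Ezh2, 0.59 for Tet2, 0.56 for Hells and 0.32 for Eed.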

How the results depend on the processing

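Over the members' results under all alternatives, 3674 values stayed on their side of the threshold, 51 lost the call and 15 gained one. Among values called in either fit, 0 changed sign. Values called in neither fit count among the 3674 even where their sign changed. Of the 8 members, deficient against sufficient medium at day 14 had 2 calls with array weights in place of 0, and 0 to 1 with 1 array left out. At day 21 the single call came to 0 in serials up to 45 and in a fit on the groups compared, and to 0 to 1 with 1 array left out. Deficient against excess medium at day 7 had 1 call, but 2 with array weights, 0 in serials up to 45, 0 in the fit on the groups compared, 0 with the replicate block, and 0 to 1 with 1 array left out. The replicate block moved no other member count by over 1.5 times. Day 21 against day 14 had 3 calls in place of 5 in sufficient medium in serials up to 45, and 1 in place of 2 in excess medium in the fit on the groups compared. The deficient effect at day 21 minus day 7 had 1 call with array weights in place of 0, and the excess effect 3 in place of 6 when arrays with a beta-actin difference over 2.1 were left out. The causes were not tested, beyond the smaller number of arrays in some of these fits. The fits without serials 53 to 56 and without the arrays above 2.1 were chosen after seeing the data. Over all genes, excess against sufficient medium gave 2133 to 4309 calls at day 14 (3743 as reported), 2619 to 4352 at day 21 (3974) and 0 to 783 at day 7 (216). Deficient against sufficient medium gave 1 to 106 at day 14 (8) and 43 to 323 at day 21 (71), and deficient against excess medium 198 to 1651 at day 7 (455). Deficient against sufficient medium at day 7 reached 10 (0), and the deficient effect 2 to 59 (4). Leaving out arrays over 2.1 gave the lowest counts of deficient against excess medium at day 14, 2201 (3666), of day 14 and of day 21 against the time before in excess medium, 2902 (4380) and 1111 (2108), and of the excess effect, 1222 (2232). The stricter limit on low values left Dnmt3a untested.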

Other observations

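Imprinted genes, whose silencing rests on DNA methylation, were mostly low on these arrays, and 6 of 17 measured passed the limit on low values. In excess against sufficient medium at day 21, 1 of the 6 was higher and 3 were lower by limma. Over all genes, 24.4% were called higher and 19.3% lower there. What part DNA methylation has in these values was not tested. H19, an imprinted noncoding RNA, averaged 7.87 in excess and 8.68 in sufficient medium, a change of -0.81 ± 0.14 (adjusted p = 9.2e-06). Igf2, the growth factor gene beside it, averaged 4.75 in excess and 5.43 in sufficient medium (-0.69 ± 0.21, adjusted p = 0.0069). In sufficient medium Igf2 was higher by 2.03 at day 21 than at day 7.

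Germline genes, many of which are held silent by promoter methylation, passed the limit in 2 of 8 measured, Tex101 and Rhox5. Tex101 averaged 13.11 in excess and 13.22 in sufficient medium at day 14, and Rhox5 11.48 in excess and 11.33 in sufficient medium at day 21. Of 7 tested Polycomb target genes 2 were higher and 0 lower in excess medium at each of these days, near the 22.3% and 24.4% of all genes called higher, and Hoxa5 was higher by 0.31 at day 14 and 0.30 at day 21.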
